A study of Rattus norvegicus with 2 samples.

Results

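The 42 genes described here encode chemokines, interleukins and other cytokines, their receptors, leukocyte adhesion molecules, and NF-kB subunits with genes that NF-kB induces. They were chosen by function, as a list of current rat gene symbols, with earlier results of these data known. Each was read through array probes whose RefSeq accession belongs to that gene. Of the 42 listed genes, 37 had such a probe and 31 were measured, out of 13435 named and 10484 measured genes on the arrays. The data come from kidneys of female PCK rats, which carry a Pkhd1 mutation and develop the rat counterpart of human autosomal recessive polycystic kidney disease. The pioglitazone group received 10 mg/kg of this PPAR-gamma agonist by gavage each day between 4 and 20 weeks of age, and the vehicle group received 0.5% DMSO on the same schedule. The kidney RNA of each group was combined into a pool and hybridised to 1 array per group, so no difference has a replicate check and no p-value is given. The labels give the pool as 5 females in one place and 3 rats in another. Whole kidney RNA holds every cell type of the organ, so fewer cells of a type and less RNA per cell cannot be told apart.

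Chemokines are small secreted proteins that direct the movement of leukocytes through receptors coupled to G proteins, and interleukins and tumour necrosis factor carry signals between immune and tissue cells. NF-kB is a dimeric transcription factor held in the cytoplasm by inhibitor proteins. Signals through interleukin, tumour necrosis factor and Toll-like receptors release it to the nucleus, where it induces many chemokine and cytokine genes together with its own inhibitors. Cystic kidneys are known for macrophages around the cysts, and ligand-bound PPAR-gamma is known to repress NF-kB-driven genes in macrophages.

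Both arrays lay on the same slide and were scanned together, per the file headers. Of spots other than controls, 73.1% were well above background on the pioglitazone array and 71.8% on the vehicle array, and 0 were saturated. The number of arrays limits the precision. All 5 proximal tubule markers of the kidney check were measured, with signals of 57100 with pioglitazone and 52900 with vehicle for Lrp2, an endocytic receptor of that segment. Values given first are processed signals, which are background-subtracted linear intensities. A difference is the log2 signal with pioglitazone minus that with vehicle, after each array was set to its own 75th percentile, which removed an excess of 0.08 log2 units on the pioglitazone array. Its error is technical only, from the scanner software's error of both spots, with a median of 0.20 among the members. This is the software's estimate, not a measured spread, and averaging repeated spots did not lower it. In the 3 detected member probes with 10 spots, the SD of the spot differences had a median of 0.06. A difference within the technical error can thus exceed the spread of repeated spots, and neither measure holds differences between animals. Signals of different probes are not comparable with each other.

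As a set, the members lay slightly lower in the pioglitazone kidneys, by amounts that mostly stayed within the technical error. Medians differed by role, at -0.17 for CXC and CX3C ligands, -0.15 for NF-kB genes and -0.11 for CC ligands. Cytokine receptors were at -0.27 and adhesion molecules at -0.14, with 2 measured genes each. Chemokine receptors, at -0.01, and cytokine ligands, at -0.0006, had almost no shift. The difference was negative for 23 of 31 measured members, where 43.8% of all measured genes were negative. The members' median was -0.15, against 0.03 over all measured genes. A gene counted as higher or lower when it differed by at least 1.5-fold and by more than 2 technical errors. By this criterion 1 of the 31 members was lower, the interleukin-1 receptor antagonist gene Il1rn, where 1.76% of all measured genes were lower. No member (0 of 31) was higher, where 0.754% of all measured genes were. The single lower call is too few to set the members apart from that background. At any fold, 5 members lay more than 2 technical errors lower (Il1rn, Cxcl2, Il6r, Cxcl13 and Birc3) and 0 lay as far above, where 3.84% and 1.76% of all measured genes did. The other members' differences lay within 2 technical errors, and those of 19 members within 1.

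The shift was seen at most levels of brightness, but not among the dimmest genes. Genes were sorted by the geometric mean of their 2 signals. Above a signal of 1000, 6 of 6 members lay below the median of all genes of that brightness, which was 0.05. Between 200 and 1000 this held for 10 of 11 members, and between 50 and 200 for 6 of 7. Below 50 it held for 3 of 7. The central 90% of all genes spanned -0.60 to 0.48 in this dimmest class and -0.23 to 0.26 in the brightest, so fewer bright genes reached a given difference. The members' median minus the median of all measured genes was -0.17, and -0.12 with normexp background correction (on the raw median signals, with an offset of 50) or with a mean over the probes of a gene. Over 6 scalings of the arrays, which mostly moved all genes alike, the sign turned for Ccl5, Cxcl10, Cxcl12, Ccr1, Il1b, Tnfrsf1a and Icam1. With the normexp correction it turned for Ccr2 and Il15, and with a mean over probes for Nfkb2. All these members have no settled direction.

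**Figure D1:**
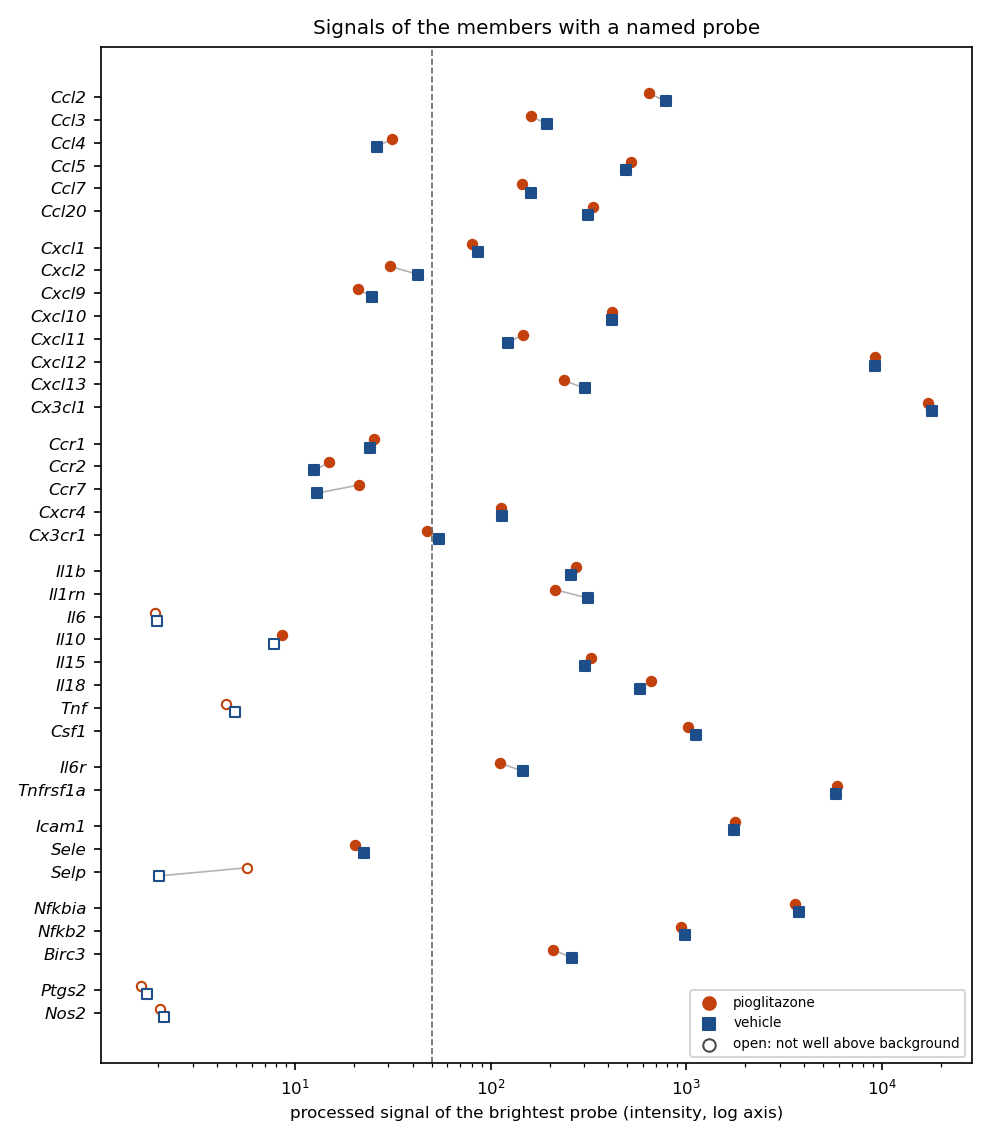
Processed signals of the 37 members with a named probe, grouped by role, on a log axis. Circles are the pioglitazone array and squares the vehicle array, open symbols were not well above background, and the dashed line marks a signal of 50. Il6, Tnf, Selp, Ptgs2 and Nos2 are open on both arrays, and positions of different genes are not comparable with each other.

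Most markers of macrophages and T cells had small negative differences in the same comparison. All 9 measured macrophage markers of 10 listed and all 8 T cell markers had negative differences, with medians of -0.34 and -0.33, and the tenth macrophage marker, Cd163, was not well above background on either array. Of all measured genes, 43.8% were negative. By the 1.5-fold criterion 1 of each list was lower, the dim genes Itgam (-0.77 ± 0.28) and Cd2 (-0.88 ± 0.28), where 1.76% of all measured genes were. A single call is too few to set either list apart from that share. The signs of Ptprc (-0.08) and Lck (-0.05) turned with the scaling. The unscaled sum of macrophage marker signals was 21438 with pioglitazone and 23084 with vehicle, most of it from Lyz2, with 14400 with pioglitazone and 14700 with vehicle. The unscaled sum of T cell marker signals was 1351 with pioglitazone and 1556 with vehicle. Such sums weigh probes by their brightness and keep the excess of the pioglitazone array, so they cannot be set beside the scaled medians. Cd68, a lysosomal protein of macrophages, was at -0.43 and Cd3g, a chain of the T cell receptor complex, at -0.55, both short of 1.5-fold. Other markers differed less. Aif1, Mrc1 and Tyrobp lay between -0.36 and -0.34, and Adgre1, Csf1r and Lyz2 between -0.15 and -0.11. The other chains Cd3e and Cd3d were at -0.26 and -0.14. The B cell marker Cd79b was at -0.30. Of the neutrophil markers S100a8 was at -0.45 and S100a9 at -0.06, and Camp was not well above background on either array. Ngp was detected with pioglitazone alone, at a dim 9.22 with pioglitazone and 1.77 with vehicle. Endothelial markers had a median of 0.02 over 6 genes. The part of these cell types in the members' differences was not tested.

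Among the CC chemokines, 3 of 6 members were negative and the median was -0.11. Ccl2, the main chemoattractant of monocytes, had a signal of 647 with pioglitazone and 784 with vehicle, a difference of -0.36 ± 0.20 (technical error). Its probe was printed 10 times on each array, with signals from 606 to 680 around a median of 653.5 with pioglitazone and from 729 to 821 around a median of 788 with vehicle. After scaling the spots of the 2 arrays did not overlap, all 10 pairs of spots were lower with pioglitazone, and the SD of the spot differences was 0.04. This spread covers the printing and reading of 1 labelled RNA pool and holds no difference between animals. Ccl7, which shares the receptor Ccr2 with Ccl2, had 145 with pioglitazone and 161 with vehicle (-0.23 ± 0.21), and its second probe gave -0.30. Ccl3, a macrophage inflammatory protein, had 161 with pioglitazone and 193 with vehicle (-0.34 ± 0.20). Ccl4, a close relative of Ccl3, was dim at 31.2 with pioglitazone and 26.3 with vehicle (0.16 ± 0.23). Ccl5, which attracts T cells and monocytes, had 522 with pioglitazone and 489 with vehicle (0.01 ± 0.20), and Ccl20, the ligand of Ccr6, had 335 with pioglitazone and 313 with vehicle (0.02 ± 0.20). Neither left the range of 1 technical error.

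CXC and CX3C chemokines were negative in 7 of 8 members, with a median of -0.17. Cxcl2, a neutrophil attractant acting through Cxcr2, had the largest negative difference among the chemokine ligands, with 30.6 in the pioglitazone pool and 42.7 in the vehicle pool. Its difference of -0.56 ± 0.23 lay just short of 1.5-fold, which is 0.58 on the log2 scale, and its signal was dim on both arrays. With the normexp correction it was -0.21. Cxcl1, a relative that uses the same receptor, had 80.3 with pioglitazone and 86.0 with vehicle (-0.18 ± 0.21). Cxcl13, which draws B cells into lymphoid clusters, had 236 with pioglitazone and 304 with vehicle, a difference of -0.45 ± 0.20. The 3 interferon-induced ligands of Cxcr3 did not share a direction. Cxcl9 had 21.1 with pioglitazone and 24.8 with vehicle (-0.32 ± 0.25). Cxcl10 had 419 with pioglitazone and 416 with vehicle (-0.07 ± 0.20). Cxcl11 had 146 with pioglitazone and 122 with vehicle (0.18 ± 0.21), the only positive one of this family. Cxcl12, a stromal chemokine, had 9180 with pioglitazone and 9160 with vehicle (-0.08 ± 0.20), and a probe for another of its transcripts gave -0.11. Cx3cl1, a membrane-anchored chemokine known as fractalkine, had 17100 with pioglitazone and 18100 with vehicle (-0.16 ± 0.20), and its dimmer probe gave -0.07. The probes' specificity between close relatives such as Cxcl1 and Cxcl2 or Ccl3 and Ccl4 was not tested.

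**Figure D2:**
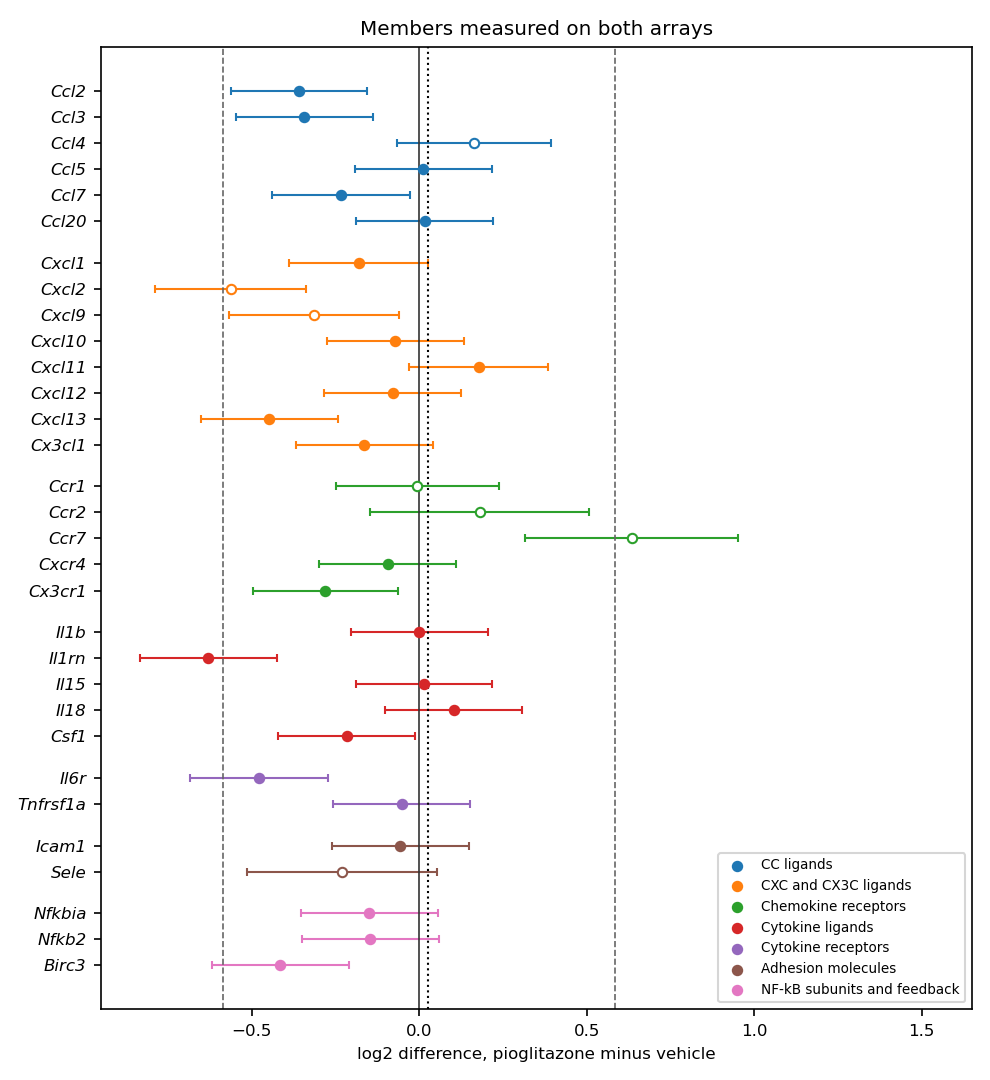
Log2 difference, pioglitazone minus vehicle, of the 31 measured members by role. Bars are 1 technical error of the difference, open points had a signal below 50 on both arrays, dashed lines mark 1.5-fold, and the dotted line is the median of all measured genes at 0.03. Il1rn lies past the left dashed line and Ccr7 past the right one, where its error bar is wider.

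The 5 chemokine receptors had small signals and a median difference of -0.01. Ccr7, the receptor that guides lymphocytes and dendritic cells towards Ccl19 and Ccl21, had 21.2 with pioglitazone and 12.9 with vehicle. Its difference of 0.63 ± 0.32 exceeded 1.5-fold but lay just under 2 technical errors, and with the normexp correction it was 0.08. It met the criterion as higher under 4 of the 6 scalings, those by median, quantile and cyclic loess and none at all. Ccr2, the receptor of Ccl2 on monocytes, had 15.0 with pioglitazone and 12.5 with vehicle (0.18 ± 0.33), and with the normexp correction its difference was -0.02. Ccr1, which binds Ccl3 and Ccl5, had 25.4 with pioglitazone and 24.1 with vehicle (-0.01 ± 0.24). Cx3cr1, the receptor of fractalkine on macrophages, had 47.3 with pioglitazone and 54.3 with vehicle (-0.28 ± 0.22). Cxcr4, the receptor of Cxcl12, had 113 with pioglitazone and 114 with vehicle (-0.10 ± 0.21), and its second probe gave -0.07.

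Among the cytokine ligands Il1rn stood lowest. It encodes a secreted antagonist that occupies the interleukin-1 receptor without signalling. Il1rn had a signal of 214 ± 21.5 with pioglitazone and 313 ± 31.3 with vehicle (software error of 1 spot each). The difference was -0.63 ± 0.20, a ratio of 0.646 of pioglitazone over vehicle. It ran between -0.64 and -0.55 over the 6 scalings and met 1.5-fold in 4 of them, not with median scaling or without scaling. With the normexp correction it was -0.52, which ended the call. A second Il1rn probe was not well above background on either array and gives no second reading. Il1b, the agonist of the same receptor, had 272 with pioglitazone and 257 with vehicle on its brightest probe, a difference of -0.0006. A second Il1b probe with 10 spots ran from 235 to 277 with pioglitazone and from 233 to 265 with vehicle. These spots overlapped after scaling, with a mean difference of -0.01 and an SD of 0.09, and 7 of 10 pairs were lower with pioglitazone. The agonist and the antagonist thus had different readings on the same arrays, and the difference between them was not tested.

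The remaining cytokine ligands differed little. Csf1, which maintains macrophages through Csf1r, had 1020 with pioglitazone and 1120 with vehicle (-0.22 ± 0.20), and its second probe gave -0.10. Il15, a survival factor of T and natural killer cells, had 326 with pioglitazone and 305 with vehicle (0.01 ± 0.20). Il18, a cytokine matured by the inflammasome, had 658 with pioglitazone and 579 with vehicle (0.10 ± 0.20). Among receptors, Il6r, the ligand-binding chain for interleukin-6, had 111 with pioglitazone and 146 with vehicle, a difference of -0.48 ± 0.21. Tnfrsf1a, the main receptor of tumour necrosis factor, had 5920 with pioglitazone and 5800 with vehicle (-0.05 ± 0.20).

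Several cytokines and induced enzymes most often read as signs of inflammation were at or under the detection limit, so these arrays say little about them. The Tnf probe, with 10 spots per array, had signals from 1.62 to 10.8 with pioglitazone and from 3.02 to 6.40 with vehicle, and 1 of the pioglitazone spots and 0 of the vehicle spots were well above background. The Il6 probe had medians of 1.89 with pioglitazone and 2.11 with vehicle over 10 spots each. On each array 1 Il6 spot was well above background, at 10.5 with pioglitazone and 49.0 with vehicle, and both carried an outlier flag. Nos2, which makes nitric oxide, had 0 of 10 spots well above background on either array. Ptgs2, the inducible cyclooxygenase, had 1.63 with pioglitazone and 1.75 with vehicle, neither well above background. Selp, an endothelial and platelet selectin, had 5.68 with pioglitazone and 2.01 with vehicle, also not well above background on either array. Il10, which restrains macrophages, was detected with pioglitazone only, in 5 of 8 unflagged spots against 2 of 8 with vehicle. Its mean signals were 8.62 with pioglitazone and 7.82 with vehicle. The spots of the arrays overlapped after scaling and 3 of 8 were lower with pioglitazone, so no direction is given. Il34, Il1r1, Nfkb1, Relb and Tnfaip3 had no probe named through an accession and are not analysed here.

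**Figure D3:**
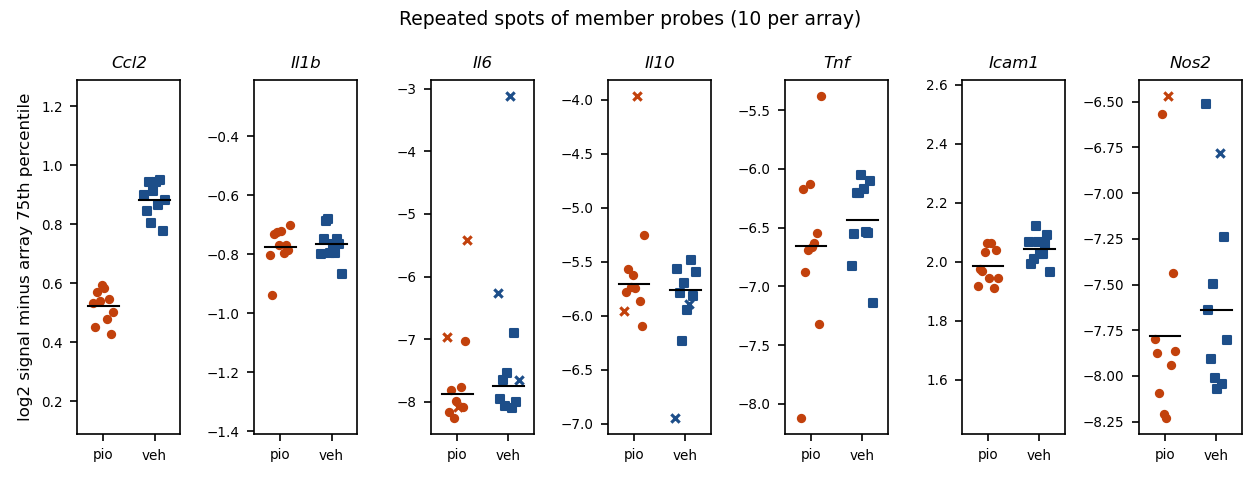
Scaled log2 signal of every spot of the 7 member probes printed 10 times, with the pioglitazone array (pio, circles) left of the vehicle array (veh, squares). Crosses are spots with an outlier flag and lines are means of the others. Each panel has its own axis range. The Ccl2 spots separate by array, those of Il1b and Icam1 overlap within a narrow range, and those of Il6, Il10, Tnf and Nos2 scatter near background.

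The adhesion molecules that leukocytes bind on endothelium showed no sizeable difference. Icam1, a ligand of leukocyte integrins, was printed 10 times and had signals from 1690 to 1880 with pioglitazone and from 1660 to 1850 with vehicle. Its mean difference was -0.06, with an SD of 0.06 over spots, and the spots of the arrays overlapped. After scaling 9 of 10 pairs of Icam1 spots were lower with pioglitazone, but the sign of the mean turned over the 6 scalings. Sele, a selectin of activated endothelium, was dim at 20.3 with pioglitazone and 22.5 with vehicle (-0.23 ± 0.28).

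On their brightest probes, the measured NF-kB subunit and feedback genes were negative in 3 of 3 cases, with a median of -0.15. Nfkbia, the inhibitor that NF-kB itself induces, had 3590 with pioglitazone and 3760 with vehicle (-0.15 ± 0.20). Nfkb2, the precursor subunit of the non-canonical pathway, had 943 with pioglitazone and 986 with vehicle (-0.15 ± 0.20), while its dim second probe gave 0.23 ± 0.28. With a mean over its probes Nfkb2 was at 0.04, so its sign is not settled. Birc3, a ubiquitin ligase of the tumour necrosis factor receptor complex, had 208 with pioglitazone and 262 with vehicle, a difference of -0.42 ± 0.20. None of the 3 genes reached 1.5-fold.

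Promoter sequence was set beside these values, because NF-kB binds DNA at kappaB elements. RefSeq promoter windows of build GRCr8, from 250 bases before to 50 bases after the gene start, were found for 30 of the 42 members. The letters GGGNNNTTCC, a form of the kappaB element, were searched on both strands. They occurred in 13 of 30 member windows (43.3%), against 1796 of 33469 windows of the same length over all genes (5.37%). Genes that NF-kB induces were put on the list by choice, so this higher share is no independent finding. A match is a run of letters and not a shown binding site. The 9 measured members with a match had a median difference of -0.15 with 7 negative, and the 15 measured members whose window had no match had a median of -0.08 with 12 negative. A second search, for the kappaB consensus, matched 12 of 30 member windows (40%), against 7.51% of all windows. Il1rn had no match in that second search. There the 8 measured members with a match had a median of -0.15 and the 16 without had -0.09. Nfkb2 held GGGACTTTCC starting 20 bases before its gene start, Cxcl1 held GGGAATTTCC at 84 bases before, and Cxcl10 held GGGAAATTCC at 187 bases before. Il6, which was not detected, held GGGATTTTCC at 68 bases before. The windows of 4 members are shown 5′ to 3′ on the gene's strand, with the matches in capitals, since they span the lowest difference (Il1rn), the lowest chemokine (Cxcl2), the feedback inhibitor (Nfkbia) and the only positive CXC ligand (Cxcl11). Il1rn lies at chr3:27520072-27520371 on the plus strand, Cxcl2 at chr14:17467206-17467505 on the minus strand, Nfkbia at chr6:78597023-78597322 on the minus strand and Cxcl11 at chr14:15973478-15973777 on the plus strand.
Il1rn: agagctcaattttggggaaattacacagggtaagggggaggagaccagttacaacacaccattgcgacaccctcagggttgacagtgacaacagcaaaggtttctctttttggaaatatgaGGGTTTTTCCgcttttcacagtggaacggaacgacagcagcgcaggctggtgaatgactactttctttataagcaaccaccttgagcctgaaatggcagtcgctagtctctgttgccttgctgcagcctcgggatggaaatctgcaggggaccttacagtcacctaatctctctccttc
Cxcl2: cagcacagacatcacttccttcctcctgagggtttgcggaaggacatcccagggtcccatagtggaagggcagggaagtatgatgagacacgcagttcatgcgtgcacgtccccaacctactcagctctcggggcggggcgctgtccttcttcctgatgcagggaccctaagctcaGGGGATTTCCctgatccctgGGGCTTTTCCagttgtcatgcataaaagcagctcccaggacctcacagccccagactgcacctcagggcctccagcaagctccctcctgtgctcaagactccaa
Nfkbia: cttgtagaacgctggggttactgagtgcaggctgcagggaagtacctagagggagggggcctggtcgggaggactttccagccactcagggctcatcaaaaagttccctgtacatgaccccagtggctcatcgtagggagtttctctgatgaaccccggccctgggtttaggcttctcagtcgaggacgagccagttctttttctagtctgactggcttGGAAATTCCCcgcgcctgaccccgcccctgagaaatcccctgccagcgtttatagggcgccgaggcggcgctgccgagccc
Cxcl11: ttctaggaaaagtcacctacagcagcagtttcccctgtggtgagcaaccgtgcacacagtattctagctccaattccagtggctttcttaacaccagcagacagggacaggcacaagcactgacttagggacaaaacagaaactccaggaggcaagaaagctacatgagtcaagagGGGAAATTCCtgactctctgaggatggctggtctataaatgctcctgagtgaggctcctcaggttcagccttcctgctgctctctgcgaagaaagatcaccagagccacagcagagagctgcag
In Il1rn the GGGNNNTTCC match, GGGTTTTTCC, starts 129 bases before the gene start, and the kappaB consensus search gave no match. Cxcl2 has GGGGATTTCC at 74 and GGGCTTTTCC at 54 bases before its start. In Nfkbia the match GGGAATTTCC is read on the opposite strand and spans the bases that begin 31 before the start. Cxcl11, with a difference of 0.18, has GGGAAATTCC at 74 bases before its start. Members with a GGGNNNTTCC match thus had differences of both signs, between -0.63 and 0.18.

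Genes around the members in the same pathways had medians between -0.15 and -0.07 in each list, against 0.03 over all measured genes. Of 95 such genes measured among 150 listed, 2 were lower and 1 was higher by the 1.5-fold criterion. Beside the background shares of 1.76% and 0.754%, so few calls do not set these genes apart. Other chemokine ligands were negative in 11 of 13 measured genes with 0 called, where 43.8% of all measured genes were negative. The eosinophil attractant Ccl24, which was dim, was at -0.42 ± 0.23, and the Ccr7 ligand Ccl21 at -0.39 ± 0.20. Ccr7 itself was dim and positive, also within 2 technical errors. Ccl27 was at 0.28 ± 0.20 and the dim Ccl12 at -0.30 ± 0.32. No measured gene of this list exceeded 2 technical errors. Of the other chemokine receptors 5 of 17 were measured, with Cxcr6 at -0.33, the interferon-chemokine receptor Cxcr3 at -0.24 and Ccr10 at 0.20. The neutrophil receptors Cxcr1 and Cxcr2 were not well above background on either array.

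Other cytokines and cytokine receptors were negative in 16 of 29 measured genes, where 43.8% of all measured genes were. Their median was -0.10 and 1 was called lower, where 1.76% of all measured genes were. That gene was Il16, a lymphocyte attractant, with a dim signal of 18 with pioglitazone and 33.1 with vehicle (-0.96 ± 0.25). Il1rl1, the receptor of Il33, was at -0.58 ± 0.28, just short of 1.5-fold. Tnfrsf1b, the second receptor of tumour necrosis factor, had 286 with pioglitazone and 388 with vehicle (-0.52 ± 0.20), beside -0.05 for Tnfrsf1a. The death receptor Fas was at -0.46 ± 0.20. The largest positive difference of the list was that of Tnfsf10, a death receptor ligand, at 0.46 ± 0.23, and 13 of the 29 genes were positive.

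The NF-kB signalling list, from Toll-like receptors to kinases and subunits, was negative in 17 of 27 measured genes, with a median of -0.07 and 0 called. Tlr2, a receptor for bacterial lipopeptides, had 436 with pioglitazone and 558 with vehicle (-0.44 ± 0.20). The adaptor Myd88 went the other way at 0.32 ± 0.20, as did the kinase Ikbke at 0.31 ± 0.23. The kinase Chuk was at -0.31 ± 0.21. The transactivating subunit Rela was at -0.12 and the kinase Ikbkb at 0.05. Other genes known as NF-kB targets were negative in 15 of 21, with a median of -0.09. Beside both lists, 43.8% of all measured genes were negative, 1.76% were called lower and 0.754% higher. Complement factor B (Cfb) was the 1 called lower, at 447 with pioglitazone and 823 with vehicle (-0.96 ± 0.20). Plaur, the urokinase receptor, was the 1 called higher, at 99.2 with pioglitazone and 50.3 with vehicle (0.90 ± 0.21). The matrix gene Tnc was at -0.57 ± 0.21 and the complement gene C3 at -0.55 ± 0.20. The other endothelial adhesion target Vcam1 was at -0.10, close to Icam1 at -0.06.

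**Figure D4:**
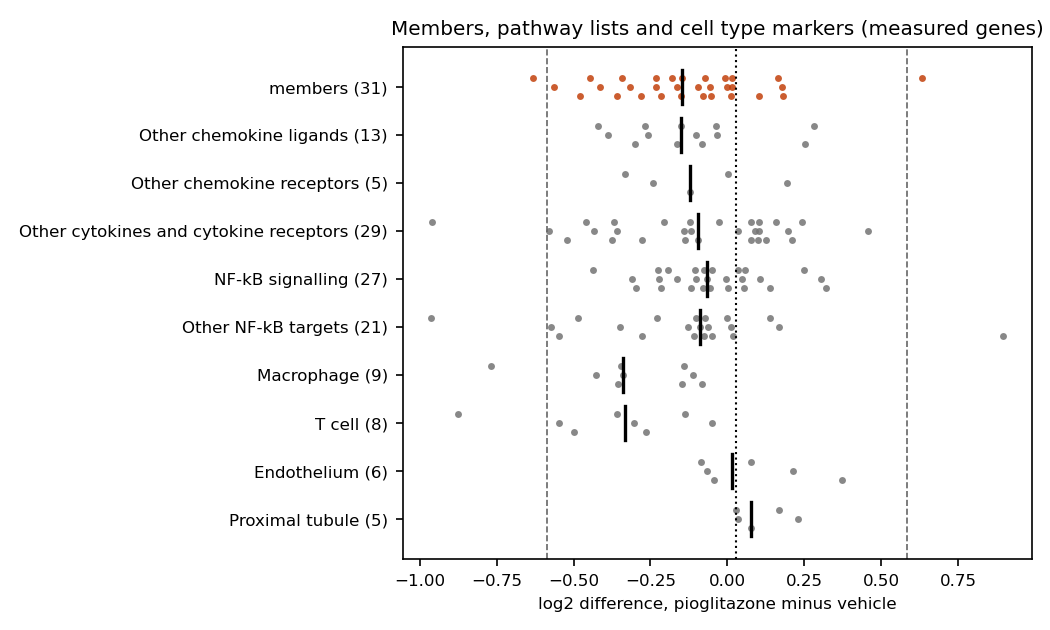
Log2 difference, pioglitazone minus vehicle, of the measured members, of pathway lists and of cell type marker lists, with the number of measured genes in brackets. Each point is a gene, thick lines are medians, dashed lines mark 1.5-fold and the dotted line is the median of all measured genes. The members' median of -0.15 lies between those of the macrophage and T cell markers (-0.34 and -0.33) and those of endothelium (0.02) and proximal tubule (0.08).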

How the data were processed

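Pooled kidney RNA of 1 pioglitazone and 1 vehicle group was labelled with Cy3 and hybridised to 1 Agilent rat array each. The deposited intensity values are linear processed signals. They come from Agilent Feature Extraction (version 10.7.3.1, per the submitters' processing notes), which took off background and spatial trends array by array, per the file headers, without scaling the arrays to each other. The value table holds the same signals at all 45018 features.

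Control spots and 149 spots with outlier flags were left out. Log2 signals were reduced by each array's 75th percentile, and replicate spots of a probe were averaged. RefSeq accessions without versions named 16959 of 40998 probes (41.4%) through the GRCr8 gene table. Of the rest, 24039 had no symbol here and 0 had several. Per the file headers the array design uses rn4, so no probe coordinates are given. A gene took its brightest probe and counted as measured if both arrays had it well above background. A difference had to reach 1.5-fold and exceed 2 technical errors. The steps were also run on simulated data with spot noise smaller than the technical error. That run checked the steps and cannot show how often real genes are falsely called. Tools were Python 3.11.15, pandas 2.3.3, numpy 2.4.6 and limma 3.58.1.

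The members, pathway lists and alternatives were chosen with earlier results of these data known. All members are named, with up to 4 genes per pathway list by size of difference. Genes named beyond these, such as Tnfsf10, Rela, Ikbkb and Vcam1, were picked after values were seen. Some genes that the rule selects are not reported. Alternatives were median, detected-probe, quantile, cyclic loess and no scaling, a mean over probes, other filters on dim probes, flagged spots kept and normexp correction.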

Additional observations from a re-analysis of the deposited data

How the results depend on the processing

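The median of the measured members was -0.15 and stayed negative under all alternatives, at -0.064 without scaling between arrays. Counts of called members rest on 2 genes near a limit and changed with the scaling. Il1rn lay near 1.5-fold. Ccr7 passed 1.5-fold in all 6 scalings, at 0.62 to 0.72, but lay near the limit of 2 technical errors. With median scaling or with no scaling, 1 member was higher (Ccr7) and 0 were lower. Over all 10484 measured genes, 109 were higher and 132 lower with median scaling, and 130 and 117 with no scaling. With quantile or cyclic loess scaling 1 member was higher (Ccr7) beside Il1rn lower. Over all measured genes, 91 were higher and 158 lower with quantile scaling, and 90 and 170 with cyclic loess. With normexp correction Il1rn was at -0.52, so that 0 members were lower and 0 higher, where 47 genes in all were lower and 10 higher against 184 and 79. The other alternatives kept Il1rn as the 1 lower call: the 75th percentile of detected probes, a mean over probes, flagged spots kept, either filter on dim probes, and leaving out the middle grid rows, an alternative chosen after seeing the data. These rows hold the probes of 7 measured members, and without them the median was -0.10 over 24 members. Over all named genes, 128 were higher and 229 lower with no filter on dim probes, and 22 and 72 with signals of 50 or more alone. The normexp setting adds an offset of 50 to both signals, which in itself makes the log2 differences of dim genes smaller. How far this or other steps account for these shifts was not tested. No paired analysis was possible because a lone array stands for either pool. The low signals of Tnf, Il6, Il10, Selp, Ptgs2 and Nos2 set the limit for those genes.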
